A study of Mus musculus with 3 samples.

Results

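The miR-181 family of the mouse comprises 6 miRNA hairpins, Mir181a-1, Mir181b-1, Mir181a-2, Mir181b-2, Mir181c and Mir181d, which are 6 of the 1072 miRNA genes in the reference miRNA table used here. All 6 were taken as members by name, and each was found in the alignments by its hairpin or mature sequence. The data are small RNA-seq libraries from MIN6 cells, an insulinoma cell line derived from mouse pancreatic beta cells that carry the SV40 large T antigen under the insulin promoter. There were 3 replicate libraries of 1 condition, culture in 25 mM glucose, so no comparison between conditions and no test was made, and every value describes these libraries. The methods of the study call the libraries biological replicates without saying how the cultures were separated, and the SD measures the spread between these libraries. The libraries held 9269795, 10816006 and 10218743 mapped reads. They differed from each other by more than the sampling noise of their counts, and an arm with 0 reads may still hold up to 3, that is, 0.324, 0.277 and 0.294 RPM (reads for each 1000000 mapped reads) in replicates 1, 2 and 3. Mir375, the dominant miRNA of beta cells, was at 365704 ± 19121 RPM (SD, n = 3) over its hairpin. The islet miRNA hairpins Mir7-1 and Mir7-2 were at 260 ± 25.6 and 383 ± 28.7 RPM (SD, n = 3). The blood cell hairpins Mir142 and Mir223 and the muscle hairpin Mir1a-1 were placed at no locus, but the placement found only 18 of 50 simulated hairpins with reads, so this does not show that they were absent.

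A miRNA is cut from the 2 arms of its hairpin by Drosha and Dicer, and the strand that is loaded into an Argonaute protein finds its targets mainly through the seed, positions 2 to 8 counted from the 5′-end. Because the seed starts at a fixed distance from the 5′-end, a shifted 5′-start changes the targets, whereas the 3′-end can be trimmed or extended by added nucleotides without altering the seed. The miR-181 family is best known from the thymus, where miR-181a tunes T cell receptor signaling, and it is also found in many other tissues, including brain.

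The mature sequences show what the sequencing can and cannot separate. They are given 5′ to 3′ from RefSeq (GRCm38.p6), with the seed in capitals. The 4 distinct 5p forms share 1 seed:

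miR-181a-5p: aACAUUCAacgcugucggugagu
miR-181b-5p: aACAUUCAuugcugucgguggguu
miR-181c-5p: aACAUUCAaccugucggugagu
miR-181d-5p: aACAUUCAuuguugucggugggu

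Over the 23 bases compared, miR-181b-5p differed from miR-181a-5p by A9U, C10U and A21G, with the base of miR-181a-5p first and positions counted from 1 at the 5′-end. miR-181d-5p differed from miR-181b-5p by C12U alone, and miR-181c-5p lacked base 11 of miR-181a-5p and was otherwise the same over its length. Mir181a-1 and Mir181a-2 carry the same miR-181a-5p, and Mir181b-1 and Mir181b-2 carry the same miR-181b-5p. The 3p forms are listed because they do differ between copies:

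miR-181a-1-3p: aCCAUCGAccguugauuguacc
miR-181a-2-3p: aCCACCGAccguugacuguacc
miR-181b-1-3p: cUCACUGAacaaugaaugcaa
miR-181b-2-3p: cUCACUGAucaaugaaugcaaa
miR-181c-3p: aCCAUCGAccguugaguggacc
miR-181d-3p: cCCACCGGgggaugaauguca

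miR-181a-1-3p and miR-181a-2-3p differ by U5C and U16C, the first of which lies in the seed, so these copies have different 3p seeds. miR-181b-1-3p and miR-181b-2-3p differ by A9U and share their seed. miR-181a-1-3p and miR-181c-3p share a seed and differ by U16G and U19G.

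The hairpins lie in 3 clusters of 2. In mm9, the build named in the submitters' processing notes, miR-181a-5p of Mir181a-1 was at chr1:139863045-139863067 and its 3p arm at chr1:139863085-139863106, both on the plus strand. Mir181b-1 followed on the same strand, with its 5p arm at chr1:139863227-139863250 and its 3p arm at chr1:139863267-139863287, so that the 5p starts were 182 bases apart. On the plus strand of chromosome 2, the 5p arms of Mir181a-2 and Mir181b-2 were at chr2:38708261-38708283 and chr2:38709365-38709388, 1104 bases apart. On the minus strand of chromosome 8, the 5p arms of Mir181c and Mir181d were at chr8:86702823-86702844 and chr8:86702658-86702680, with starts 164 bases apart. In the GENCODE M21 annotation (GRCm38), Mir181a-1 and Mir181b-1 lie in an exon of the lincRNA A430106G13Rik and an intron of the processed transcript Gm4258, both on their own strand, and in an intron of the lincRNA Gm26936 on the opposite strand. Mir181a-2 and Mir181b-2 lie opposite an intron of Nr6a1, which encodes an orphan nuclear receptor, and Mir181b-2 also lies opposite an exon of Gm44144. Mir181c and Mir181d lie in an intron of Nanos3, a germ cell gene, on its own strand.

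The family made up 1.69% of the mapped reads. All arms together were at 17761, 16506 and 16289 RPM in replicates 1, 2 and 3, or 16852 ± 795 RPM (SD, n = 3). Nearly all of this came from the 5p arms, at 16560 ± 773 RPM (SD, n = 3), against 293 ± 25.2 RPM (SD, n = 3) for the 3p arms. Of the 12 arms, 9 had at least 10 reads over the libraries.

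miR-181a-5p, summed over its copies, was by far the most abundant member. It was at 15989, 14665 and 14463 RPM in replicates 1, 2 and 3, or 15039 ± 829 RPM (SD, n = 3). It held 90.8% of the 5p reads of the family. miR-181b-5p was next among the 5p forms, at 1346, 1478 and 1444 RPM, or 1423 ± 68.8 RPM (SD, n = 3), and 8.61% of the 5p reads. miR-181a-5p was highest in replicate 1, where miR-181b-5p was lowest, and in every library miR-181a-5p exceeded miR-181b-5p, on average by 10.6-fold ± 1.11 (SD, n = 3).

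The chromosome 8 members were low. miR-181c-5p had 608, 575 and 558 reads, or 65.6, 53.2 and 54.6 RPM (57.8 ± 6.80, SD, n = 3). miR-181d-5p had 390, 443 and 384.5 reads, or 42.1, 40.9 and 37.6 RPM (40.2 ± 2.32, SD, n = 3), where fractions arise because reads with several equally good loci were divided among them. The RPM ranges of miR-181c-5p and miR-181d-5p did not overlap, and miR-181c-5p was higher in each library, by 1.56-, 1.30- and 1.45-fold. miR-181a-5p was 261-fold ± 16.3 (SD, n = 3) above miR-181c-5p, and miR-181b-5p was 35.5-fold ± 3.25 (SD, n = 3) above miR-181d-5p, its closest relative in sequence.

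Among the 3p arms, that of Mir181a-1 was the most abundant. miR-181a-1-3p had 2774.5, 2708 and 2791.5 reads, or 274 ± 24.5 RPM (SD, n = 3), and was thus above both chromosome 8 5p forms in every library. miR-181c-3p had 116.5, 126 and 101.5 reads, or 11.4 ± 1.34 RPM (SD, n = 3). miR-181b-1-3p had 70, 79 and 59 reads, or 6.88 ± 0.963 RPM (SD, n = 3). The order from miR-181a-5p through miR-181b-5p, miR-181a-1-3p, miR-181c-5p, miR-181d-5p and miR-181c-3p to miR-181b-1-3p was the same in all 3 libraries, and no neighbours in it overlapped. miR-181d-3p had 0, 2 and 0 reads, and miR-181a-2-3p and miR-181b-2-3p had 0 reads in each library, so these last were not distinguishable at this depth.

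**Figure D1:**
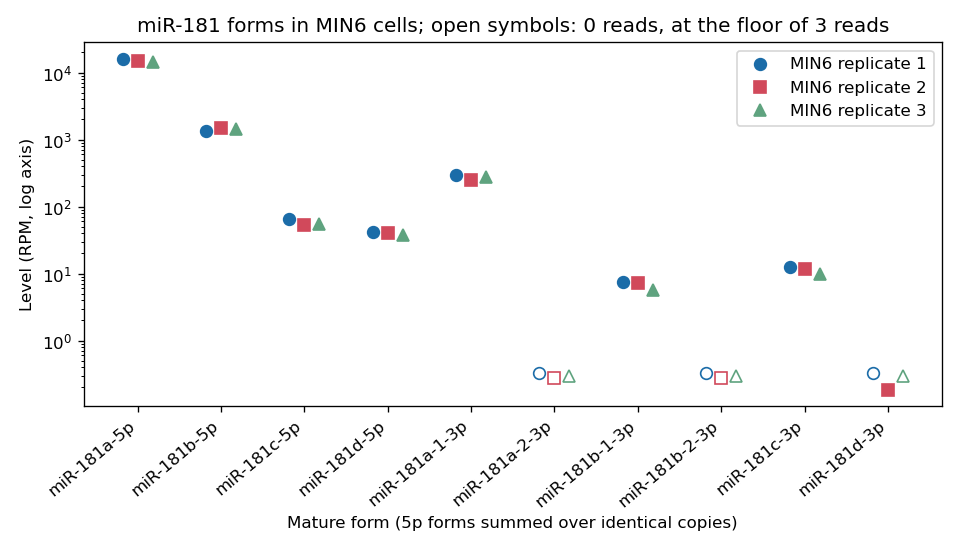
Level of each mature form in RPM (log axis) in the 3 MIN6 libraries, with 1 symbol for each replicate and 5p forms summed over copies that share a sequence. Open symbols mark 0 reads and stand at the level of 3 reads. miR-181a-5p lies at 14463 to 15989 RPM, and the 3p arms of Mir181a-2 and Mir181b-2 have no reads.

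Which copies the abundant 5p forms came from could not be read from their level. Of the miR-181a-5p reads deposited at Mir181a-1, 99.99% were also deposited at Mir181a-2, and the equal division gave each copy 50.0% of the reads. Of the miR-181b-5p reads, 99.4% of those at Mir181b-1 and 86.6% of those at Mir181b-2 were shared, and Mir181b-1 received 46.6% ± 0.270 (SD, n = 3). The share of miR-181a was set almost wholly by the even division. That of miR-181b also holds the unshared reads, which were 0.561% of those at Mir181b-1 and 13.4% of those at Mir181b-2 and are treated below. Neither share tells from which copy the shared reads came.

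The 3p arms do differ, and every 3p read of either pair was assigned to chromosome 1. Mir181a-1 had 2774.5, 2708 and 2791.5 3p reads and Mir181a-2 had 0, 0 and 0. Mir181b-1 had 70, 79 and 59 and Mir181b-2 had 0, 0 and 0. The share of the chromosome 1 copy was thus 100% in each library for both pairs, with a lower 95% Wilson bound over the pooled reads of 99.95% for miR-181a and 98.2% for miR-181b. With the chromosome 2 arms set to 3 reads per library, miR-181a-1-3p was at least 903-fold higher than miR-181a-2-3p and miR-181b-1-3p at least 19.7-fold higher than miR-181b-2-3p. Summed by cluster, the 3p reads over the libraries came to 8482 on chromosome 1, 0 on chromosome 2 and 346 on chromosome 8. Reads with mismatches were sought only in windows around exact reads, so a 3p arm outside such windows could not gain any. Whether the chromosome 2 3p arms lay outside them was not tested.

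A second readout is the few 5p reads that run beyond the bases the copies share. The first 30 bases from the 5p start, from RefSeq (GRCm38.p6) and with capitals from the first differing base on, were:

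Mir181a-1: aacauucaacgcugucggugaguuuggAAU
Mir181a-2: aacauucaacgcugucggugaguuuggGAU
Mir181b-1: aacauucauugcugucgguggguuGAACUG
Mir181b-2: aacauucauugcugucgguggguuUGAAUG

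The miR-181a copies first differ at base 28 (A28G), and the miR-181b copies at base 25 (G25U, A26G and C28A within the 30 bases). Only reads from the main start that were not shared with another locus were counted, so long reads that were shared are left out. For miR-181a, 9, 10 and 7 unshared reads that reached base 28 were assigned to Mir181a-1 and 2, 3 and 2 to Mir181a-2, or 78.8% ± 2.61 (SD, n = 3) to Mir181a-1. Mir181a-1 had more of these reads in every library, but they were only 33 reads among 454623, and 3 of them ran past base 28 without mismatch, all at Mir181a-1. Exact reads that ended at base 28 numbered 0 at either copy in each library, so the rest of the 33 held a mismatch. In such reads, an A or G copied from the genome at base 28 and one added later cannot be told apart.

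For miR-181b, the result turned on which long reads were counted. Of all unshared reads that reached base 25, 34, 40 and 38 were assigned to Mir181b-1 and 958, 1103 and 994 to Mir181b-2, or 3.54% ± 0.131 (SD, n = 3) to Mir181b-1. Exact reads that ended at base 25 gave 1, 5 and 1 for Mir181b-1, where that base is a G, and 559, 657 and 582 for Mir181b-2, where it is a U. Exact reads that ran past base 25 gave 9, 12 and 7 for Mir181b-1 and 0, 1 and 3 for Mir181b-2, or 87.4% ± 15.6 (SD, n = 3) for Mir181b-1. The reads that stop at the first differing base thus favored chromosome 2, and the exact reads that go beyond it, like the 3p arms, favored chromosome 1. This last count was chosen after the other values were seen and rests on 28 and 4 reads.

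**Figure D2:**
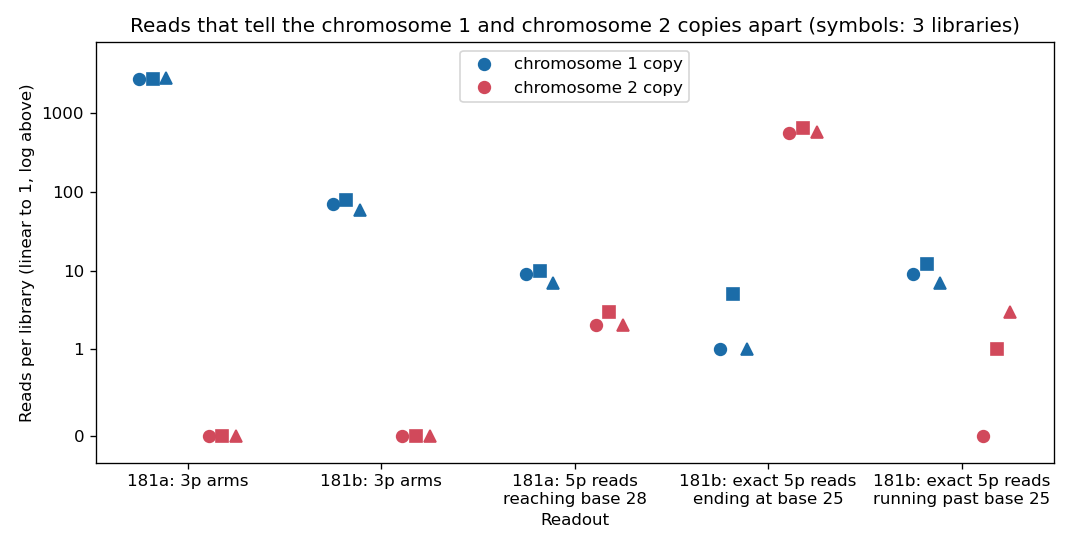
Reads that tell the chromosome 1 copy (blue) from the chromosome 2 copy (red) in each library (1 symbol for each replicate), on an axis that is linear to 1 and logarithmic above. Among the readouts plotted, the chromosome 1 copy has more reads in all except exact miR-181b reads that end at base 25, where the chromosome 2 copy has 559 to 657 reads and the chromosome 1 copy 1 to 5. The count of all unshared miR-181b reads that reach base 25 is not plotted, with 958 to 1103 for chromosome 2 and 34 to 40 for chromosome 1. The exact reads past base 25 were chosen after the data were seen.

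A read that ends in U at base 25 matches Mir181b-2 exactly but would end in a mismatch at Mir181b-1, and reads ending in a U that the genome does not hold were seen elsewhere in the family. At 26 nt, miR-181a-5p reads that ended in a mismatching U numbered 800, 885 and 824, against 1, 1 and 3 that ended in the G held by both genomic copies. At 25 nt, miR-181d-5p reads that ended in a mismatching U numbered 8, 5.5 and 6.5, against 0, 0 and 0 with the genomic G. Relative to exact reads 1 base shorter, summed over the libraries, such ends amounted to 20.2% for miR-181a-5p, 5.87% for miR-181d-5p and 6.76% for miR-181c-5p. For miR-181b-5p, the 25-nt reads ending in U amounted to 15.8% of the exact 24-nt reads. This was above the values of miR-181c-5p and miR-181d-5p, which compare the same lengths. It was below that of miR-181a-5p, which compares 26-nt with 25-nt reads. The source of the U at base 25 was not tested. A further 249, 235 and 242 miR-181b-5p reads continued this U with another U where Mir181b-2 has G. At Mir181b-2, a U copied from the genome and a U added later cannot be told apart.

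The balance of the arms differed among hairpins. At Mir181c, which shares few reads with other loci, the 5p to 3p ratio was 5.22, 4.56 and 5.50 (5.09 ± 0.480, SD, n = 3). At Mir181a-1, with its deposited share of the 5p reads, it was 26.7, 29.3 and 26.5 (27.5 ± 1.56, SD, n = 3), and with the reads of both copies summed it was 55.0 ± 3.12 (SD, n = 3). At Mir181b-1 it was 82.5, 94.5 and 117 (98.0 ± 17.5, SD, n = 3), and 210 ± 36.6 (SD, n = 3) with both copies summed. Mir181c thus had the lowest ratio in every library under either way of handling shared reads. At Mir181d, where the 3p arm had 0, 2 and 0 reads, the ratio was at least 130 and 128 in replicates 1 and 3, taking 3 reads for the 3p arm, and no ratio is given for replicate 2.

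The 5′-starts of the family, which set the seed, were nearly uniform. The share of reads at the main start, out of all starts within 5 bases, was 99.8% ± 0.00955 (SD, n = 3) for miR-181a-5p, 99.3% ± 0.0910 for miR-181b-5p, 98.7% ± 0.529 for miR-181c-5p and 99.5% ± 0.164 for miR-181d-5p. In each case the main start was that of the reference sequence. For comparison, start clusters of miRNA size (at least 1000 reads over the libraries and a most common length of 20 to 24 nt, from RNAs of any kind) numbered 457, and 25.2% of them (115) had at least 99% of their reads at the main start, with a median share of 90.4% over all. Of the 7 miR-181 arms among these clusters, 6 reached 99%, but the 5p arms of Mir181a-1 and Mir181a-2, like those of Mir181b-1 and Mir181b-2, are largely the same reads. The exception was miR-181c-5p.

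Among the 3p arms, miR-181b-1-3p and miR-181c-3p, which had few reads, were less uniform on average. miR-181a-1-3p had 99.1% ± 0.215 (SD, n = 3) of its reads at the main start and miR-181b-1-3p 97.3% ± 2.35 (SD, n = 3). miR-181c-3p had 90.8% ± 3.15 (SD, n = 3), and 13, 7 and 10 of its reads began 1 base upstream, or 8.86% ± 2.93 (SD, n = 3). This was the only other start in the family with at least 1% of its arm in every library, and it moves the seed by 1 base.

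**Figure D3:**
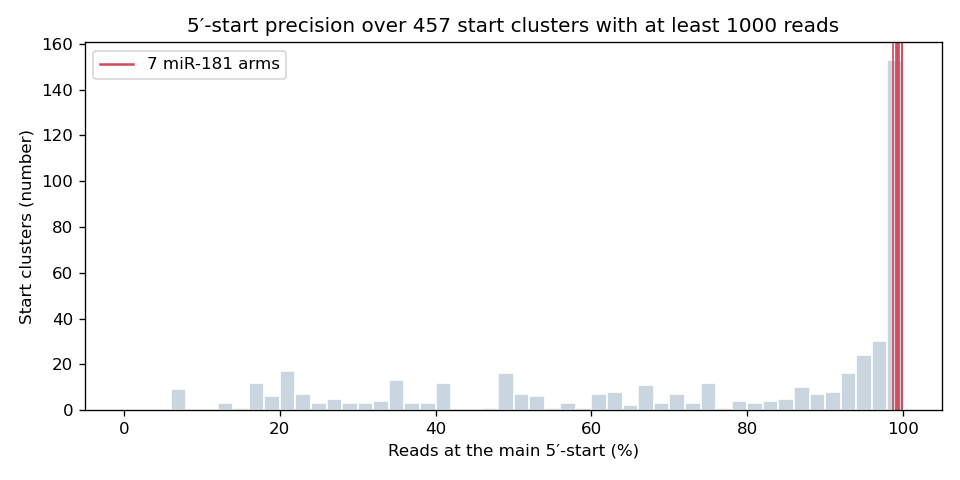
Number of start clusters by the share of their reads at the main 5′-start (percent), for all 457 clusters with at least 1000 reads, and red lines for the 7 miR-181 arms among them. The arms lie between 98.7% and 99.8%, in the highest bins, while the clusters have a median of 90.4%.

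In contrast to the 5′-ends, the 3′-ends varied, and among the 5p forms the most common length held the smallest share for miR-181b. For each 5p form the most common read was 23 nt long. This length held 58.5% ± 0.595 (SD, n = 3) of miR-181a-5p, with 26.5% ± 0.963 at 22 nt. It held 33.0% ± 0.683 (SD, n = 3) of miR-181b-5p, with 27.9% ± 1.22 at 24 nt and 27.7% ± 1.49 at 22 nt. miR-181a-5p thus had 1 dominant length, whereas miR-181b-5p was spread over 3. miR-181c-5p was like miR-181a-5p in its second length, with 47.9% ± 4.16 (SD, n = 3) at 23 nt and 29.2% ± 3.47 at 22 nt. miR-181d-5p had 38.7% ± 4.52 (SD, n = 3) at 23 nt and 29.7% ± 3.49 at 24 nt. On the 3p side, 22 nt was most common for miR-181a-1-3p (83.2% ± 0.372, SD, n = 3) and miR-181c-3p (85.0% ± 4.76), followed by 23 nt (6.34% ± 0.251) and 21 nt (7.80% ± 3.49). For miR-181b-1-3p, 21 nt held 63.9% ± 4.10 (SD, n = 3) and 22 nt 25.2% ± 7.56.

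Reads of 25 nt or more made up 3.85% ± 0.0181 (SD, n = 3) of miR-181a-5p, 8.52% ± 0.592 of miR-181b-5p, 2.34% ± 0.611 of miR-181c-5p and 14.6% ± 0.722 of miR-181d-5p. The high value of miR-181d-5p came with a separate peak at 26 nt, with 40, 50.2 and 41.2 reads, or 10.8% ± 0.543 (SD, n = 3). Of these 26-nt reads, 80.7% ± 4.20 (SD, n = 3) carried U12C, that is, the C that miR-181b-5p has at position 12. Among the 22- to 24-nt reads of miR-181d-5p, 0 of 1022 carried it. This 0 was set by the alignment and is no contrast to the 26-nt reads. Up to base 24, a read with this C fits Mir181b-1 and Mir181b-2 with fewer mismatches than Mir181d. Of all 5p reads deposited at Mir181d, 11.9% were shared with another locus, so the values of miR-181d-5p include reads that may not be its own. Without the reads that carry U12C, an alternative chosen after the data were seen, miR-181d-5p was at 36.3 ± 2.19 RPM (SD, n = 3).

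**Figure D4:**
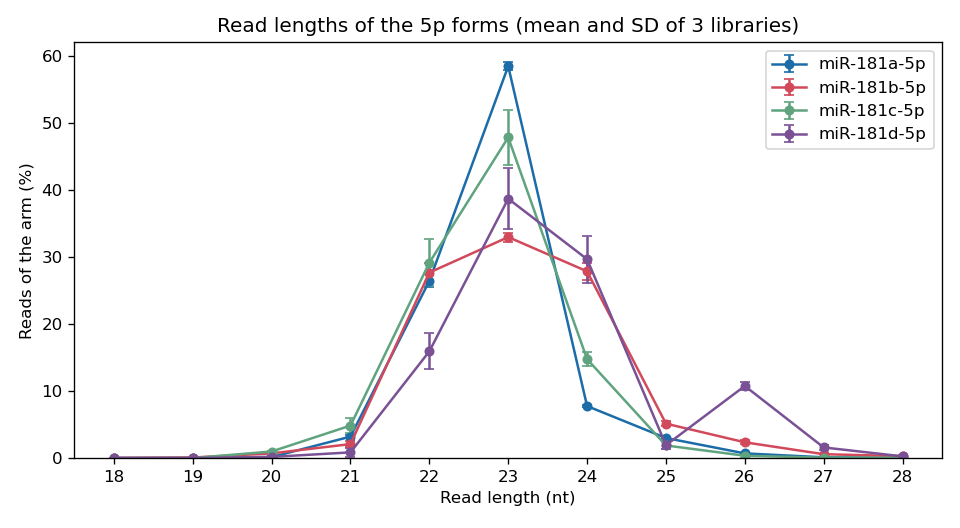
Share of the reads of each 5p form (percent) by read length (nt), as the mean of 3 MIN6 libraries with the SD as error bar. All forms peak at 23 nt, miR-181b-5p is spread over 22 to 24 nt, and miR-181d-5p has a further peak of 10.8% at 26 nt. Of the reads in this further peak, 80.7% carry the C of miR-181b-5p at position 12.

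miR-181d-5p reads at the main start made up 3.04%, 2.71% and 2.54% of those of miR-181b-5p and miR-181d-5p together, or 2.76% ± 0.252 (SD, n = 3). Without the reads that carry U12C, the share was 2.77%, 2.44% and 2.30%, or 2.50% ± 0.240 (SD, n = 3). By comparison, the highest C-to-U mismatch in miR-181b-5p at any other position was 0.0300% ± 0.00514 (SD, n = 3) of its reads, and that in miR-181a-5p up to position 19 was 0.0327% ± 0.00263 (SD, n = 3). Of the changes that turn miR-181a-5p toward miR-181b-5p, 2 were also rare in miR-181a-5p reads. A9U was in 0.0136% ± 0.00317 (SD, n = 3) and C10U in 0.0184% ± 0.00423. The remaining change, A21G near the 3′-end, was more frequent, in 0.460% ± 0.0374 (SD, n = 3) of the reads that reach position 21.

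A last base that differs from the genome is the mark by which an added 3′-nucleotide can be seen, although a sequencing error at the last base looks the same. Such reads made up 1.97%, 2.27% and 2.22% of miR-181a-5p (2.16% ± 0.159, SD, n = 3) and 1.94% ± 0.469 (SD, n = 3) of miR-181c-5p. They made up 7.47% ± 0.260 (SD, n = 3) of miR-181b-5p and 6.28% ± 0.760 (SD, n = 3) of miR-181d-5p. The median of the 457 start clusters was 3.22%, so miR-181a-5p and miR-181c-5p lay below it and miR-181b-5p and miR-181d-5p above. U was the mismatching base in 53.8% of such ends of miR-181a-5p and 53.0% of those of miR-181b-5p, and A in 21.7% and 34.1%. A U added where the genome holds U is not counted, as at bases 23 to 25 of both miR-181a copies. Mismatching ends made up 0.684%, 1.31% and 99.7% of the 23-, 25- and 26-nt reads of miR-181a-5p. Comparisons between forms and between arms carry this limit, and its size was not tested.

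By this count, the 3p arms had a larger share of mismatching ends than the 5p arms of the same hairpins. They numbered 327, 334.5 and 308 reads of miR-181a-1-3p (11.7% ± 0.662, SD, n = 3), and 30, 16 and 23 reads of miR-181c-3p (20.4% ± 6.82, SD, n = 3). At miR-181b-1-3p they were the majority, at 50, 53 and 48 reads (73.3% ± 7.31, SD, n = 3). The share of each of these arms was above that of every 5p form in all 3 libraries. Nearly all of these ends were U, with 921 reads over the libraries for miR-181a-1-3p, 148 for miR-181b-1-3p and 62 for miR-181c-3p, while A, C and G together made up the rest.

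miR-181b-1-3p was therefore seen mostly in forms that do not match the genome. Over the libraries, 96 of its 133 reads of 21 nt and 50 of its 51 reads of 22 nt ended in a mismatching base. A21U, at the last base of the reference form, was carried by 55.0% ± 5.10 (SD, n = 3) of its reads that reach position 21. Reads without any mismatch made up 15.9% ± 4.20 (SD, n = 3) of this arm, against 90.8% ± 0.184 of miR-181a-5p, 89.0% ± 0.414 of miR-181b-5p and 76.0% ± 0.155 of miR-181a-1-3p. For miR-181a-1-3p, the mismatching ends were most frequent among its 23-nt reads, at 510 of 524.

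**Figure D5:**
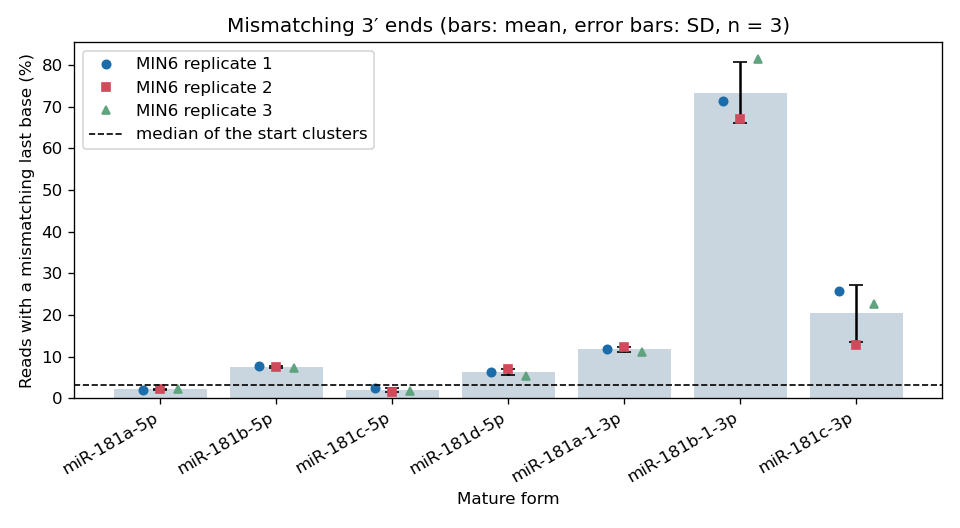
Share of reads with a mismatching last base (percent) for each mature form with at least 10 reads, as the mean (bars) and SD (error bars) of 3 MIN6 libraries with each library as a symbol, and the median of 457 start clusters as a dashed line. miR-181b-1-3p stands at 73.3%, and all 3p forms lie above all 5p forms. A U added where the genome holds U is not counted.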

How the data were processed

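Small RNA reads of 3 MIN6 libraries were analysed from their alignments to mm9. The authors trimmed the adaptor with cutadapt, aligned reads of 14 to 41 nt without mismatch with Bowtie, and aligned the rest, with mismatches, to windows around these loci with SHRiMP. The deposited values are expected counts without normalization, since reads that fit more than 1 locus equally well were split evenly. RPM of all mapped reads were computed from them (Python 3.11.15 with pandas 2.3.3, numpy 2.4.6, scipy 1.17.1; figures with matplotlib 3.10.9).

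Hairpins were placed on their chromosome and strand from 5′-starts with at least 15 reads. A read's mismatch excludes its base at that genomic position, and a placement needed 15 bits or more of such exclusions with none against the RefSeq sequence. This threshold was chosen after the data were seen, since Mir181c and Mir181d reached only 18.3 and 18.0 bits. Each member had 1 placement and its reversed sequence 0. On simulated data, 18 of 50 hairpins with reads were placed, all at their true position, and 0 of those without reads. Mir181c was placed by its mature sequences. An arm includes starts within 5 bases. Shares have 95% Wilson intervals, covering counting error alone, as no molecular identifiers were used.

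All 6 hairpins and their arms were described. Other 5′-starts were named at 1% or more of the arm in every library, lengths where most or second most common, and mismatches where they turn one member into another. Members, lists and the 99% threshold for starts were chosen with earlier results of these data known. The marker hairpins Mir122, Mir1a-2, Mir133a-1, Mir143 and Mir145a were not analysed here. Alternatives covered exact or single-locus reads, the reference start, read lengths, the handling of shared reads, the definition of a mismatching end and leaving out each replicate.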

Additional observations from a re-analysis of the deposited data

How the results depend on the processing

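Over 36 results and 195 alternatives, 154 values stayed within 1 SD of the value given and 41 moved by more. The 154 include every value without 1 replicate, since leaving out 1 of 3 libraries cannot move a mean by 1 SD. The 154 are therefore no measure of how stable the results are. With exact alignments only, the family was at 20388 RPM. The divisor here was the exact reads alone, so this level cannot be compared with the 16852 RPM of all mapped reads. With exact alignments, the chromosome 1 share of unshared long 5p reads was 100% for miR-181a and 1.88% for miR-181b. The miR-181a value rests on 1, 2 and 0 reads in replicates 1, 2 and 3. The same reads give the value for exact reads past the first differing base below. The 5p to 3p ratio was 32.8 at Mir181a-1, 601 at Mir181b-1 and 6.50 at Mir181c. The main start of miR-181a-5p then held 99.84%, and 23 nt held 59.5% of miR-181a-5p and 34.1% of miR-181b-5p. With reads of 16 to 27 nt only, the family was at 19168 RPM, with the reads of these lengths as the divisor. Levels that moved under either of these settings thus include the change of divisor. With exact reads past the first differing base only, chosen after the data were seen, the chromosome 1 share was 100% for miR-181a and 87.4% for miR-181b, which turns the copy with more miR-181b reads from chromosome 2, at a chromosome 1 share of 3.54%, to chromosome 1. With both copies summed, the ratio was 55.0 at Mir181a-1 and 210 at Mir181b-1. With starts within 2 bases, the main start of miR-181a-5p held 99.82%. Counting a mismatch in any of the last 3 bases gave 3.32% for miR-181a-5p and 8.43% for miR-181b-5p. The ratio at Mir181b-1 with exact reads rests on few 3p reads, since 34 of 208 were exact. miR-181b-1-3p then was at 1.50 RPM, again with exact reads as the divisor. With single-locus reads only, miR-181a-5p was at 1.19 RPM and miR-181b-5p at 106 RPM, since nearly all their reads are shared. Without each replicate in turn, the family was at 16398 to 17134 RPM. No paired analysis was possible because there is only 1 condition. Depth limits the chromosome 2 3p arms and miR-181d-3p, whose 0 to 2 reads allow lower bounds of a ratio at most.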

Other observations

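Several mismatches within the arms recurred at fixed positions, and they were chosen after their values were seen. The most frequent short of the last base was A12C in miR-181b-1-3p, in 15, 14 and 15 reads, or 22.1% ± 3.51 (SD, n = 3). A20C was carried by 10.7% ± 1.09 (SD, n = 3) of the miR-181c-5p reads that reach position 20, 12.0% ± 0.792 of those of miR-181a-1-3p, 12.1% ± 3.21 of those of miR-181c-3p and 13.5% ± 7.08 of those of miR-181b-1-3p. Over all alignments, whatever their genomic base, a mismatching C was seen in 1.23% ± 0.0252 (SD, n = 3) of the reads at position 12 and in 1.21% ± 0.0798 (SD, n = 3) at position 20. A9C was carried by 2.88% ± 0.112 (SD, n = 3) of miR-181a-5p reads and 2.72% ± 0.505 of miR-181c-5p reads. The source of these mismatches was not tested.

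Few reads of the hairpins began outside the arms. Summed over the libraries, they numbered 51.4 at Mir181a-1, 14.2 at Mir181b-1, 40.9 at Mir181a-2, 3.96 at Mir181b-2, 4 at Mir181c, between its arms, and 0 at Mir181d. These counts include reads divided among loci. In replicate 2, Mir181a-1 and Mir181a-2 each had 12.5, so the counts do not separate the copies. On the opposite strand, 1 read was found at Mir181b-2 and 0 at each of the other hairpins.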
